A study of Drosophila melanogaster with 42 samples.

Results

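The core circadian clock genes of the fly and the gene of its main clock neuropeptide were followed in the male offspring of fathers that had or had not been restrained. The 9 genes were chosen by symbol, namely per, tim, Clk, cyc, cry, vri, Pdp1, cwo and Pdf. Each is listed once among the 15061 genes of each of the 4 deposited tables. All 9 passed a minimum mean of 1 FPKM (the number of sequenced fragments corrected for gene length and for library size) in the 3 tables whose libraries are named.

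In the fly clock, the transcription factors Clock and Cycle, encoded by Clk and cyc, bind E-box elements and switch on per, tim, vri, Pdp1 and cwo. Period and Timeless then return to the nucleus and block their own activators, Vrille and Pdp1 act on Clk in opposite directions, and Clockwork orange represses E-box genes. In heads kept in light and dark, per, tim and vri RNA is known to peak early in the night, whereas Clk and cry RNA peaks near dawn, and cyc RNA hardly cycles. Cryptochrome is the blue light receptor that marks Timeless for degradation, and Pdf encodes the peptide that a small set of brain neurons uses to keep clock neurons in step. Most of the cells that carry this clock in the head are photoreceptors and glia.

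RNA-seq was performed on pools of 50 F1 males from w1118 mothers, which carry a mutation of the eye pigment gene white. The fathers were w1118, or dATF-2KO, a backcrossed line from which the dATF-2 gene region had been removed, so that its sons by w1118 mothers are heterozygous by descent. Fathers were restrained for 10 h in each of 3 sessions or kept unrestrained. Heads were taken with w1118 fathers (5 unrestrained and 5 restrained libraries) and with dATF-2KO fathers (5 and 5), and the rest of the body, called other parts, with dATF-2KO fathers (5 and 5) and w1118 fathers (6 and 6). The flies lived at 25 °C under 12 h of light and 12 h of dark. Their age was 5 to 6 days by the sample labels and 6 to 7 days by the design text of the series, and the hour of the day at which they were frozen is not given in the sources used here. Whether the pools of a group descend from separate crosses is not stated, and p-values refer to the spread between pools, which may be technical.

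The sum of FPKM over all genes lay between 707383 and 744159 per library in w1118 heads, 681793 and 724792 in dATF-2KO heads and 1014446 and 1112219 in dATF-2KO other parts. These sums are not read counts, and the depth of the libraries is unknown. Atf-2 RNA stood at 66.7 to 74.7 FPKM in w1118 heads and 69.1 to 75.0 FPKM in dATF-2KO heads. It was thus not lower in the sons that are heterozygous by descent, though the tables were scaled separately. The genotype of the fathers rests on the labels. All 13 photoreceptor markers were present in heads, with summed levels of 35797 to 38678 FPKM, against 21.0 to 23.8 FPKM in dATF-2KO other parts. Restrained replicate 3 with dATF-2KO fathers stood apart in both tissues, since its yolk protein RNA Yp1 reached 499 FPKM in heads and 486 FPKM in other parts, where the next highest libraries held 12.8 and 0.428 FPKM. The changes and counts of the 9 genes, the lists and the named relations in these tables are therefore also given without that library. In other parts with w1118 fathers the columns of the 12 libraries could not be matched to the labels and were not used, so that only the authors' mean of the restrained group is given there, with no SD and no test.

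In unrestrained w1118 heads the receptor gene cry had the highest level of the 9 genes, 174 ± 2.45 FPKM (SD, n = 5). It was followed by Pdp1 at 151 ± 6.76 FPKM and tim at 151 ± 2.71 FPKM, whose libraries overlapped. Pdf stood at 90.8 ± 6.33 FPKM, and vri, the repressor of Clk, at 65.0 ± 3.15 FPKM. The libraries of per (35.1 ± 1.204 FPKM) and cwo (34.8 ± 0.561 FPKM) overlapped, cyc was at 24.4 ± 1.11 FPKM, and Clk came last at 8.88 ± 0.478 FPKM. In all 4 head groups the members from position 3 downwards were tim, Pdf, vri, the pair per and cwo, cyc and Clk, while cry and Pdp1 shared the first places.

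In dATF-2KO other parts cry (108 ± 2.87 FPKM), Pdp1 (77.7 ± 6.28 FPKM) and tim (55.7 ± 2.28 FPKM) again led among unrestrained libraries. At the low end stood Pdf at 4.51 ± 0.974 FPKM and per at 4.28 ± 0.184 FPKM, whose libraries overlapped. The activator Clk took another place here than in heads, at 24.8 ± 0.777 FPKM, within the range of cwo (25.9 ± 2.19 FPKM), followed by cyc at 15.3 ± 0.493 FPKM. The value of Clk is uncertain in this tissue. The locus of Clk (chromosome 3L, positions 7756333 to 7768703 in dm3) overlaps the gene CG32371, which stood at 239 to 334 FPKM across the 10 libraries of dATF-2KO other parts and at no more than 1.503 FPKM in any head library. The sources do not state how reads of overlapping genes were divided. In other parts with w1118 fathers, the authors' mean of the restrained group was 9.13 FPKM for Clk beside 59.8 FPKM for CG32371.

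The authors' mean of that group was 142 FPKM for cry, 67.9 FPKM for Pdp1, 45.6 FPKM for tim, 38.4 FPKM for vri, 27.3 FPKM for cwo, 21.1 FPKM for cyc, 6.43 FPKM for Pdf and 5.42 FPKM for per. As in dATF-2KO other parts, cry, Pdp1 and tim led and per and Pdf came last. The tables were scaled separately, so levels in different tables are set side by side and were not tested against each other. The genes per (chromosome X, 2579613 to 2587919) and cry (chromosome 3R, 15037915 to 15052373) also overlap a neighbour, CG2650 and vib. CG2650 stayed at or under 4.40 FPKM in the head libraries, whereas vib held 66.7 to 77.8 FPKM there, so that the value of cry carries the same uncertainty. In dATF-2KO other parts CG2650 held 0.506 to 1.78 FPKM beside 3.58 to 5.13 FPKM for per. The value of per is therefore uncertain in that tissue too. The loci of tim (chromosome 2L, 3493986 to 3508119), vri (2L, 5299647 to 5310996), Pdp1 (3L, 7805015 to 7860469), cyc (3L, 19806870 to 19809038), cwo (3R, 6213980 to 6226474) and Pdf (3R, 22281184 to 22281863) overlap no other gene of the tables.

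**Figure D1:**
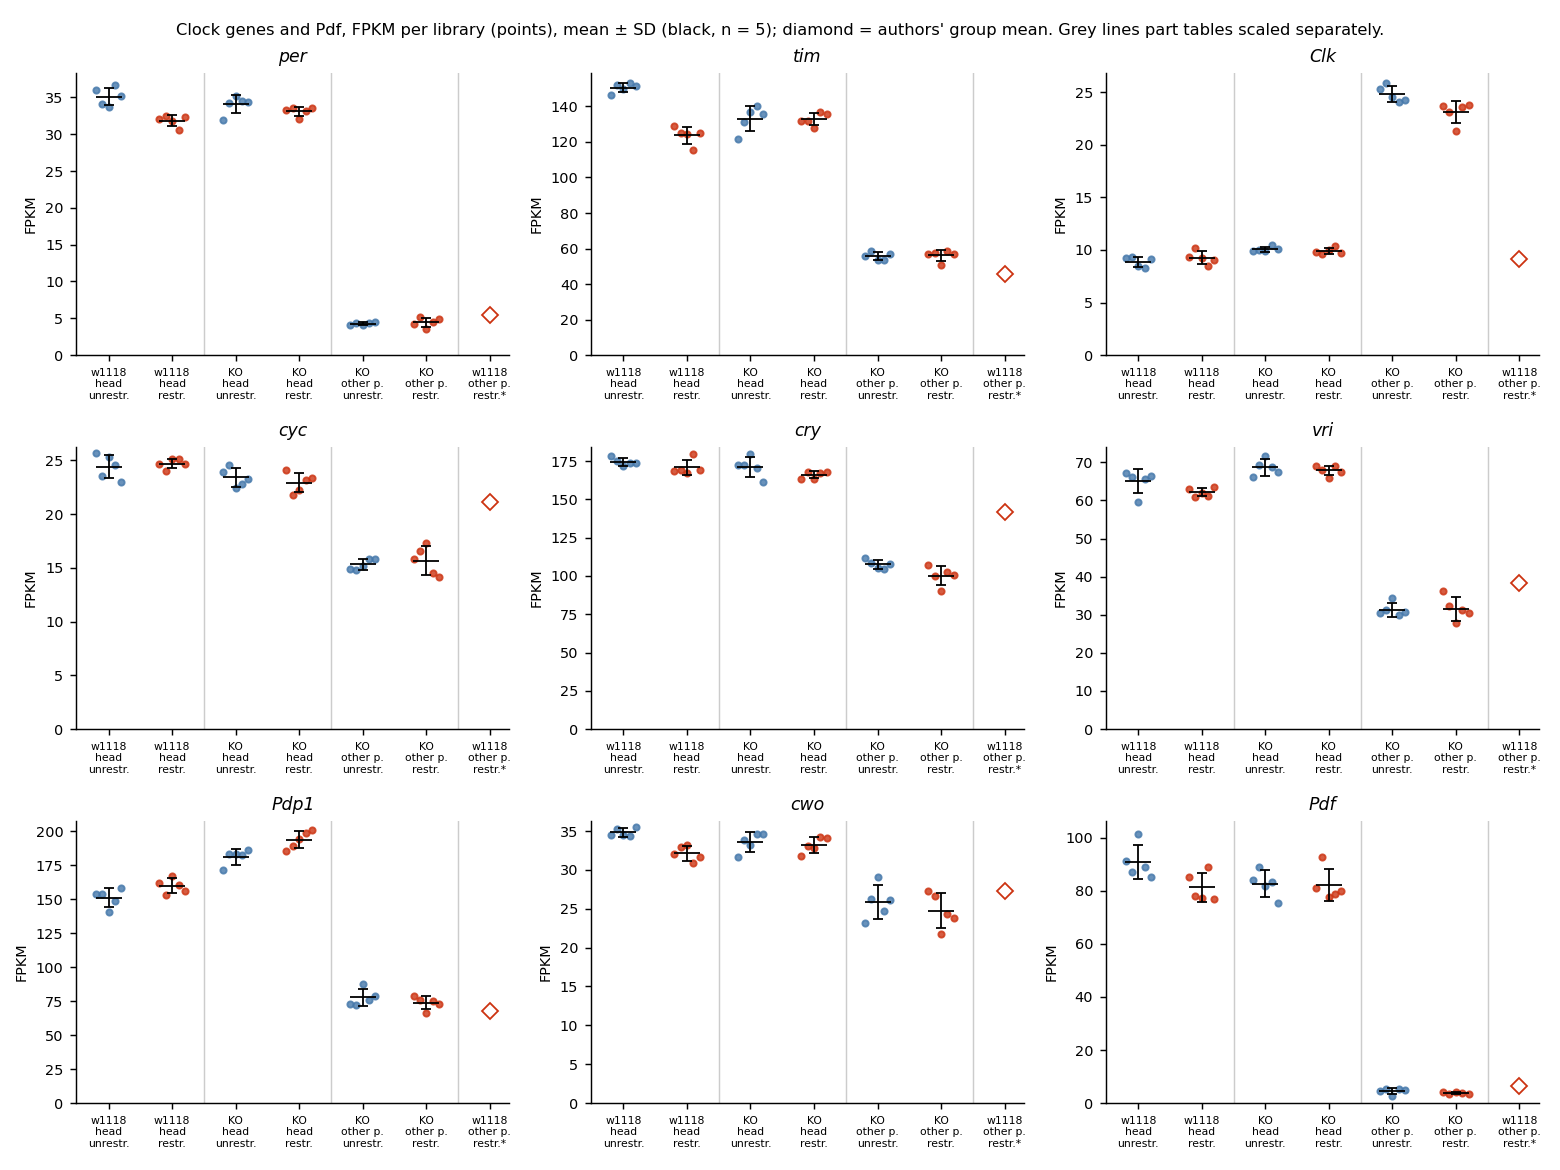
Level of each of the 9 genes in FPKM (vertical axis, from 0) in every named library (points, blue for unrestrained and red for restrained fathers), with the mean and SD of 5 libraries in black, where KO stands for dATF-2KO fathers, other p. for other parts and a diamond for the authors' mean of a group; grey lines part tables that were scaled separately. The tim libraries of w1118 heads form separate groups, 146 to 153 FPKM without and 116 to 129 FPKM with paternal restraint, and Clk is the gene whose level is higher in dATF-2KO other parts (21.3 to 25.9 FPKM) than in heads (8.25 to 10.5 FPKM). The value of Clk in other parts is uncertain because its locus overlaps CG32371.

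The question of the first comparison was whether paternal restraint changed these genes in heads of sons of w1118 fathers. The genes tim and per, which encode the partners of the inhibitory complex, fell at an adjusted p under 0.05, both by less than 1.4-fold. The other 7 genes did not pass. At the threshold of the study, an adjusted p under 0.05 with at least 1.4-fold, limma called none of the 9 genes, where 0.0907% of the 9924 genes tested were called. The study itself used another test, Cuffdiff, and reported no differentially expressed genes in heads. At an adjusted p under 0.05 and any fold, 2 of 9 passed, both lower, where 1.11% of all genes passed in either direction and 0.464% were lower. At an unadjusted p under 0.05, 4 of the 9 genes were lower and 1 higher, where 8.69% of all genes were lower and 7.06% higher.

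The level of tim in the 5 unrestrained libraries was 146, 152, 150, 153 and 151 FPKM. In the 5 restrained libraries it was 129, 125, 125, 116 and 125 FPKM. Every restrained library lay below every unrestrained one, with a gap between 129 and 146 FPKM. The mean went from 151 ± 2.71 to 124 ± 4.92 FPKM (SD, n = 5 each), a change of -17.8%. On the log2(FPKM + 0.5) scale the change was -0.28 with a standard error of 0.0282 and a 95% interval of -0.35 to -0.22, and the adjusted p from limma with Benjamini-Hochberg adjustment over 9924 genes was 0.00392. By p-value tim ranked 3 among those genes. When each library was left out in turn, the change lay between -0.30 and -0.26 and passed in all 10 fits, with adjusted p from 0.00140 to 0.0193.

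The level of per was 35.96, 34.1, 33.8, 36.6 and 35.1 FPKM in unrestrained libraries. In restrained libraries it was 32.1, 32.4, 31.8, 30.6 and 32.3 FPKM, all below the unrestrained ones. The change was -0.14 on the log2 scale (SE 0.0276), with a limma adjusted p of 0.0472. This call was close to the threshold: it was lost in 9 of 10 fits that left out a library, with adjusted p up to 0.114, and it remained without unrestrained replicate 3, at 0.0313.

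The level of cwo was 34.4, 35.3, 34.5, 34.4 and 35.6 FPKM without and 32.1, 32.9, 33.3, 30.9 and 31.7 FPKM with paternal restraint. These groups did not overlap either, but the change of -0.11 (SE 0.0240) had a limma adjusted p of 0.0578 and did not pass. Counted by overlap alone, 3 of 9 genes (tim, per and cwo) had all restrained libraries below all unrestrained ones, where 2.69% of all genes did, and none had them above, where 2.73% of all genes did.

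Of the other E-box genes, vri stood at 67.3, 66.2, 59.5, 65.6 and 66.5 FPKM without and 63.0, 60.9, 62.0, 61.3 and 63.4 FPKM with restraint. Its groups overlapped through a single unrestrained library, replicate 3 at 59.5 FPKM, and the change was -0.06 (limma adjusted p 0.382). Without that library it was -0.096 and passed, with a limma adjusted p of 0.0410, and in the other 9 fits that left out a library it did not. The level of Pdp1 was 154, 154, 141, 149 and 159 FPKM without and 162, 153, 167, 161 and 156 FPKM with restraint, a change of 0.08 (limma adjusted p 0.295). Among the 5 genes that Clock and Cycle activate, the estimate was positive for Pdp1 and negative for tim, per, cwo and vri. Over all 10 libraries tim and per passed, while Pdp1, cwo and vri did not. Each value covers a whole gene, and Pdp1 has 4 start sites, tim and vri 3 each and Clk 2, so changes of single transcripts were not tested.

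The genes whose RNA peaks near dawn did not pass. Clk stood at 8.25 to 9.33 FPKM without and 8.47 to 10.2 FPKM with paternal restraint, a change of 0.06 with an interval of -0.06 to 0.17 (limma adjusted p 0.646). The level of cry was 172 to 178 FPKM without and 167 to 180 FPKM with restraint, a change of -0.03 with an interval of -0.08 to 0.02 (limma adjusted p 0.569). For cyc, the partner of Clk, the change was 0.02 with an interval of -0.05 to 0.09 (limma adjusted p 0.851).

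The neuropeptide gene Pdf stood at 91.3, 87.3, 101, 89.0 and 85.2 FPKM without and 85.2, 78.1, 77.5, 88.9 and 77.1 FPKM with restraint. The groups overlapped and the change of -0.16 (SE 0.0551) had a limma adjusted p of 0.203. For all 9 genes the 95% interval of the change lay within 1.4-fold in this table.

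**Figure D2:**
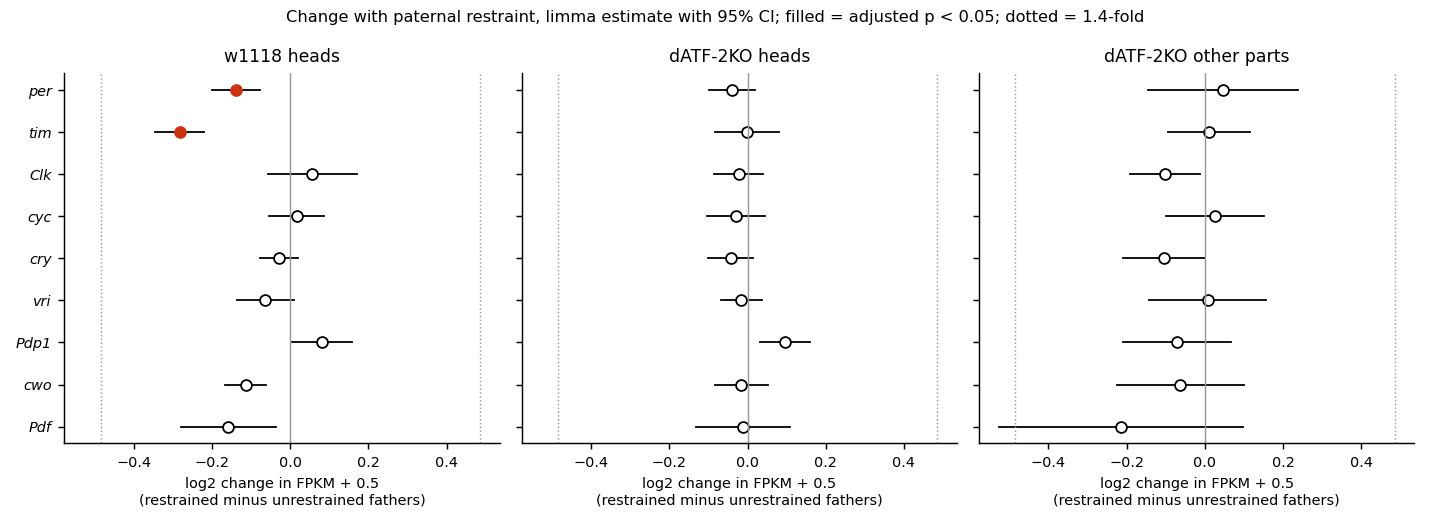
Change of each gene with paternal restraint on the log2(FPKM + 0.5) scale (horizontal axis, restrained minus unrestrained fathers) with its 95% interval from limma over 5 and 5 libraries, in 3 panels for w1118 heads, dATF-2KO heads and dATF-2KO other parts; filled points have an adjusted p under 0.05 and dotted lines mark 1.4-fold. Filled points appear at tim (-0.28) and per (-0.14) in w1118 heads and nowhere else.

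Some photoreceptor markers were lower with paternal restraint in this table, as tim was. Of 13 markers, 5 were lower at an adjusted p under 0.05 and any fold, where 0.464% of all genes were: the myosin ninaC (-0.16), the rhodopsins Rh3 (-0.12) and Rh5 (-0.21), the photoreceptor cell surface protein gene chp (-0.14) and trp, a channel gene of the light response (-0.13). The median change of the 13 was -0.09, beside -0.01 for all genes. The other 8 markers did not pass. The main rhodopsin ninaE was at -0.01 (limma adjusted p 0.848), and norpA, a phospholipase of the light response, was at 0.11 (limma adjusted p 0.206). Every restrained library of norpA lay above every unrestrained one, as was the case for 2.73% of all genes. The summed level of the 13 markers was 37655 to 38678 FPKM without and 36675 to 38179 FPKM with paternal restraint, and none was listed at 0. The change of tim, -0.28, was lower than that of any of the 13 markers (-0.21 to 0.11). With the mean log2 level of these markers as a covariate, tim stood at -0.37 with a limma adjusted p of 0.445, and per at -0.24 with 0.453. That mean did not overlap between the groups (9.87 to 9.88 without and 9.78 to 9.82 with restraint), so the covariate and the groups cannot be told apart. Fewer cells of a type and less RNA per cell cannot be told apart in these bulk samples.

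Among neuron markers in the same table, 1 of 10 was higher at an adjusted p under 0.05 and any fold, where 0.645% of all genes were, the calcium channel gene cac (32.2 to 40.3 FPKM), with a median change of 0.11 for the list and summed levels of 1019 to 1095 FPKM without and 1065 to 1140 FPKM with paternal restraint. None of 6 glia markers passed, where 1.11% of all genes did. The median change of the glia markers was -0.05, with sums of 633 to 659 FPKM and 628 to 645 FPKM. No neuron or glia marker was listed at 0. The part of these cell types in the changes of tim and per was not tested.

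In heads of sons of dATF-2KO fathers none of the 9 genes passed in either direction at any fold, where 0.0501% of the 9975 genes tested passed at any fold and 0.01% at 1.4-fold. A single member, Pdp1, was higher at an unadjusted p under 0.05, where 6.05% of all genes were. The level of tim was 122, 131, 137, 140 and 136 FPKM without and 132, 132, 128, 137 and 136 FPKM with paternal restraint. The groups overlapped throughout, and the change was -0.0011 on the log2 scale with an interval of -0.08 to 0.08 (limma adjusted p 0.997).

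The level of per in dATF-2KO heads was 32.0 to 35.2 FPKM without and 32.1 to 33.5 FPKM with restraint, a change of -0.04 (limma adjusted p 0.649). That of cwo was 31.6 to 34.7 and 31.8 to 34.3 FPKM, a change of -0.02 (limma adjusted p 0.903). For Pdp1 the libraries held 171, 183, 183, 183 and 186 FPKM without and 185, 190, 194, 199 and 201 FPKM with restraint. Here 1 restrained library lay below the highest unrestrained one, and the change of 0.10 (SE 0.0287) had a limma adjusted p of 0.281. The changes of Pdf, Clk, cyc, cry and vri lay between -0.04 and -0.01.

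Without restrained replicate 3, the library high in yolk protein RNA, the change of tim in these heads was 0.01 (limma adjusted p 0.959), and again none of the 9 genes passed. None of the 13 photoreceptor markers passed in this table, where 0.0501% of all genes passed over all its libraries. The median change of the markers was 0.01 both with and without that library. None of 10 neuron markers passed in this table either, with a median change of 0.03, and of 0.04 without that library. At an unadjusted p under 0.05, 3 of these 10 were higher and 0 lower, where 6.05% of all genes were higher and 4.39% lower. The neuron marker cac was at 0.14 (limma adjusted p 0.167).

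The change of tim with paternal restraint differed between the father genotypes in the fit with no covariate. In this fit over the 20 head libraries the difference, w1118 minus dATF-2KO, was -0.28 with a standard error of 0.0473 and an interval of -0.38 to -0.18. Its adjusted p from limma over 9808 genes was 0.0142, where 0.153% of all genes passed, and tim ranked 8 by p-value. The difference kept an adjusted p under 0.05, from 0.0111 to 0.0391, in the 20 fits that left out 1 library each and with either other pseudocount, quantile normalization or median scaling. It did not with the mean level of the photoreceptor markers as a covariate, where it was -0.19 with an adjusted p of 0.627. That covariate did not overlap between the groups of w1118 heads, so this fit cannot tell the markers and restraint apart there. Without the dATF-2KO restrained replicate 3 and with no covariate the difference was -0.30, with an adjusted p of 0.0198.

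For the other 8 genes the difference between genotypes did not pass. It was -0.10 for per (interval -0.18 to -0.02, limma adjusted p 0.321) and -0.10 for cwo (-0.18 to -0.02, limma adjusted p 0.326). For Pdf it was -0.15 (-0.32 to 0.02, limma adjusted p 0.511). The remaining 5 genes had adjusted p from 0.662 to 0.944. Father genotype coincides with the table in this fit, so genotype and anything else that set the tables apart cannot be told apart.

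The comparison in dATF-2KO other parts found none of the 9 genes at an adjusted p under 0.05 and any fold, where 0.162% of the 12363 genes tested passed at any fold and 0.146% at 1.4-fold. At an unadjusted p under 0.05, 2 of 9 were lower, where 4.26% of all genes were. These were Clk and cry, the 2 genes whose RNA peaks near dawn. The loci of both overlap another expressed gene, CG32371 and vib, so their values are uncertain here. Clk stood at 25.3, 25.9, 24.6, 24.1 and 24.3 FPKM without and 23.7, 23.2, 21.3, 23.6 and 23.8 FPKM with paternal restraint. The groups did not overlap, as was the case for 1 of 9 members and for 1.09% of all genes in this direction, but the change of -0.10 (SE 0.0404) had a limma adjusted p of 0.629. The level of cry was 112, 109, 105, 105 and 108 FPKM without and 107, 100, 90.0, 103 and 100 FPKM with restraint, a change of -0.10 (limma adjusted p 0.680).

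Both genes were lowest in restrained replicate 3, the library high in yolk protein RNA. Without it the change was -0.07 for Clk (limma adjusted p 0.714) and -0.07 for cry (limma adjusted p 0.777), with none of the 9 genes passing. For tim, the libraries held 55.9, 58.7, 53.7, 53.3 and 57.1 FPKM without and 57.2, 57.4, 50.6, 58.8 and 57.0 FPKM with restraint, a change of 0.01 with an interval of -0.09 to 0.12 (limma adjusted p 0.972). The level of per was 4.04 to 4.47 FPKM without and 3.58 to 5.13 FPKM with restraint, a change of 0.05 (limma adjusted p 0.918). For Pdf the libraries held 4.50, 5.11, 2.83, 5.14 and 4.97 FPKM without and 4.01, 3.35, 4.15, 3.76 and 3.48 FPKM with restraint. Its change was -0.22 with the widest interval of the 9 genes, -0.53 to 0.10 (limma adjusted p 0.793). Without unrestrained replicate 3, at 2.83 FPKM, it was -0.36 (limma adjusted p 0.222). The changes of cyc, vri, Pdp1 and cwo lay between -0.07 and 0.03.

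The wider clock pathway was described with 4 lists, none of which had a member called at 1.4-fold in any of the 3 tables. Of all genes, 0.0907% were called in w1118 heads, 0.01% in dATF-2KO heads and 0.146% in dATF-2KO other parts. In w1118 heads none of 11 tested genes for clock kinases, phosphatases and protein turnover passed at any fold, where 1.11% of all genes did. The lowest p-values were those of mts, the catalytic subunit of protein phosphatase 2A (142 to 152 FPKM, 0.10, limma adjusted p 0.0756), and of the kinase gene nmo (20.7 to 23.4 FPKM, 0.18, limma adjusted p 0.0891). Both had all restrained libraries above all unrestrained ones, where 2.73% of all genes did. The phosphatase 2A subunit gene wdb was at 0.10 and the casein kinase gene CkIIalpha at 0.04. The median change of the list was 0.03.

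None of 9 tested clock cofactors and translation factors passed at any fold in w1118 heads, where 1.11% of all genes did. The changes of these factors lay between -0.07 and 0.16. The lowest p-values were those of Atx2, a translation factor for per (0.16, limma adjusted p 0.1999), the chromatin remodelling subunit Bap60 (-0.06), lark (-0.05) and tws (-0.04). None of 9 tested peptide and receptor genes of clock neurons passed either, with changes from -0.07 for the receptor Dh31-R1 to 0.05 for the peptide gene Trissin, and sNPF and Dh31 at -0.05 and -0.03.

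Of 19 tested genes for clock output and light input, 2 were lower at an adjusted p under 0.05 and any fold in w1118 heads and none was higher, where 0.464% of all genes were lower and 0.645% higher. Slob, which encodes a protein that binds the potassium channel Slowpoke, stood at 221, 221, 227, 226 and 224 FPKM without and 203, 201, 203, 201 and 206 FPKM with paternal restraint. All restrained libraries lay below all unrestrained ones, as was the case for 2.69% of all genes. The change of -0.14 (SE 0.0147) had a limma adjusted p of 0.00392. The level of trpl, a cation channel of photoreceptors, was 1041, 1015, 992, 1040 and 1048 FPKM without and 899, 896, 863, 820 and 888 FPKM with restraint. Its change of -0.23 (SE 0.0282) had a limma adjusted p of 0.00700. The sodium pump subunit gene nrv3 (0.09) and the phospholipase gene norpA (0.11) did not pass, and the median of the list was 0.05. In dATF-2KO heads Slob was at -0.03 and trpl at -0.03, with limma adjusted p of 0.742 and 0.787, and the difference between father genotypes did not pass for Slob (-0.11, limma adjusted p 0.137) or trpl (-0.20, limma adjusted p 0.101).

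None of these lists had a member that passed at any fold in dATF-2KO heads, where 0.0501% of all genes passed. The same held in dATF-2KO other parts, where 0.162% of all genes passed. In dATF-2KO heads the lowest p-values were those of the peptide gene Dh31 (55.0 to 59.0 FPKM, 0.10, limma adjusted p 0.140), nrv3 (0.12, limma adjusted p 0.154) and mts (0.06, limma adjusted p 0.351). The lowest in dATF-2KO other parts was that of takeout, listed as to, a clock-controlled gene of feeding and courtship (31.3 to 27.6 FPKM, -0.18, limma adjusted p 0.465). Without restrained replicate 3 again no list had a member that passed in either table, and the change was 0.09 for Dh31 and 0.12 for nrv3 in heads and -0.14 for to in other parts.

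Since the clock genes peak at different hours, their relation across libraries bears on the hour of sampling. The ratio of tim to Clk, an evening gene over a dawn gene, was taken as a description with no test. In w1118 heads it was 15.9 to 18.6 in unrestrained libraries (17.0 ± 1.09, n = 5) and 12.3 to 13.8 in restrained ones (13.4 ± 0.647), without overlap. In dATF-2KO heads it was 12.2 to 13.8 (13.2 ± 0.614) and 12.8 to 14.01 (13.4 ± 0.460). In dATF-2KO other parts it was 2.19 to 2.35 (2.25 ± 0.0664) and 2.38 to 2.50 (2.43 ± 0.0530), again without overlap but with the restrained libraries above. The value of Clk, and so this ratio, is uncertain in other parts, because the locus of Clk overlaps CG32371. Without restrained replicate 3 the restrained range was 13.1 to 14.01 in dATF-2KO heads and 2.40 to 2.50 in other parts. The ratio of the authors' means in other parts with w1118 fathers was 4.99.

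**Figure D3:**
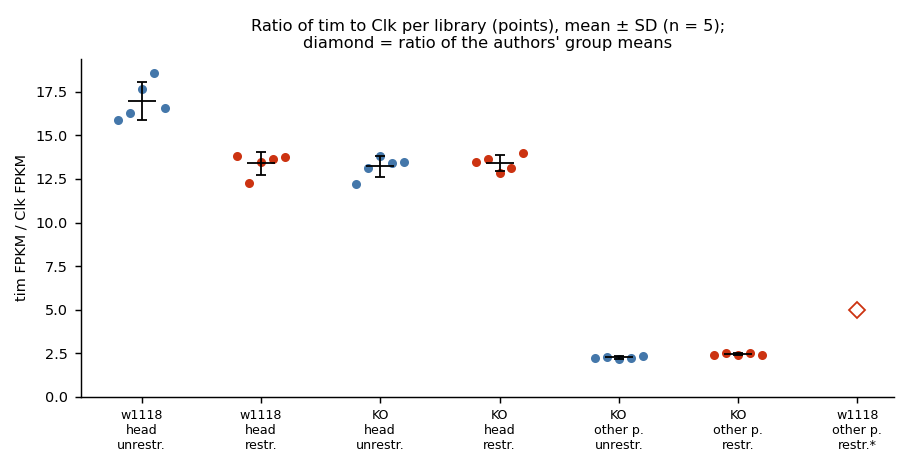
Ratio of tim to Clk FPKM (vertical axis, no unit, from 0) per library (points, blue for unrestrained and red for restrained fathers), with mean and SD of 5 libraries in black and a diamond for the ratio of the authors' means, where KO stands for dATF-2KO fathers. The unrestrained w1118 heads (15.9 to 18.6) lie above the other head groups, all of whose libraries lie between 12.2 and 14.01.

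The ratio of vri to Pdp1, both E-box genes, was 0.419 to 0.441 in unrestrained and 0.370 to 0.405 in restrained w1118 heads, and 0.362 to 0.391 and 0.336 to 0.373 in dATF-2KO heads. That of tim to per was 4.07 to 4.46 and 3.78 to 4.01 in w1118 heads, and 3.80 to 4.06 and 3.93 to 4.13 in dATF-2KO heads. The groups of w1118 heads did not overlap in either ratio, whereas those of dATF-2KO heads overlapped in both. The ratio of tim to per in dATF-2KO other parts was 11.2 to 14.1 over the 10 libraries. It is uncertain there, because the locus of per overlaps CG2650. The part of the hour of sampling in these values was not tested.

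Correlations were computed for all 36 pairs of the 9 genes in each table of 10 libraries, 108 in all, on the log2(FPKM + 0.5) scale. Since tim, per and cwo form separate clusters by group in w1118 heads, values centred on the mean of their group are given there. Without centring, per with tim and tim with cwo passed an adjusted p under 0.05 there by Pearson's r. Those values hold the difference between groups and are not given. After centring, no pair of the 108 passed an adjusted p under 0.05 in an exact permutation test within groups. The numbers of pairs with an unadjusted p under 0.05 were 2 of 36 in w1118 heads, 5 of 36 in dATF-2KO heads and 7 of 36 in dATF-2KO other parts.

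Among the 10 pairs within per, tim, vri, Pdp1 and cwo, the centred r was positive in 9 in w1118 heads (median 0.25), in 10 in dATF-2KO heads (median 0.67) and in 10 in dATF-2KO other parts (median 0.40). Between these 5 genes and the dawn genes Clk and cry it was positive in 7, 7 and 10 of 10 pairs, with medians of 0.18, 0.10 and 0.47. Restrained replicate 3 decided these signs in dATF-2KO other parts: without it, 4 of 10 pairs within the 5 genes were positive (median -0.11), and 4 of 10 against Clk and cry (median -0.16). In dATF-2KO heads the same omission left 10 and 7 positive (medians 0.69 and 0.09). For tim and Clk the centred r was 0.37 in w1118 heads, 0.39 in dATF-2KO heads and 0.87 in dATF-2KO other parts, with adjusted p of 0.681, 0.589 and 0.260 from exact permutation within groups. Without restrained replicate 3 it was 0.46 in dATF-2KO heads and 0.62 in dATF-2KO other parts.

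In w1118 heads the centred r of tim and cry was -0.86 (rho -0.38, exact permutation p 0.0345, adjusted 0.292). It rested on the extreme libraries, since r was 0.08 without the 2 farthest from the median of tim. In the same table it was 0.46 for per and tim and 0.56 for tim and cwo (exact permutation, adjusted p 0.478 and 0.521), and these became -0.09 and -0.21 without the 2 farthest.

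In dATF-2KO heads, where the groups overlapped, the r over all 10 libraries was 0.78 for per and tim (rho 0.64, permutation p 0.00666 and 0.0550, adjusted 0.0844 and 0.468) and 0.64 without the 2 farthest libraries. It was 0.79 for tim and cwo (rho 0.76, permutation p 0.00420 and 0.0145, adjusted 0.0756 and 0.229) and 0.59 without the 2 farthest. For tim and vri r was 0.61 (rho 0.44, permutation, adjusted p 0.383 and 0.691), and for tim and Pdp1 0.47 (rho 0.14, permutation, adjusted p 0.567 and 0.921). No relation of the dawn genes to tim was detected over these 10 libraries, with r of 0.37 for Clk and 0.02 for cry (permutation, adjusted p 0.641 and 0.995). Without restrained replicate 3, r of tim in dATF-2KO heads was 0.75 with per, 0.78 with cwo, 0.55 with vri, 0.61 with Pdp1, 0.39 with Clk and -0.10 with cry.

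In dATF-2KO other parts 3 pairs passed an adjusted p under 0.05 over all 10 libraries by Pearson's r, and none by Spearman's rho. Clk did not overlap between the groups of this table, so its r over all 10 libraries also holds a difference between groups. After centring none of the 3 pairs passed. The centred r was 0.85 for Clk and cry, 0.86 for Pdp1 and cwo and 0.89 for vri and cwo (exact permutation, adjusted p 0.225, 0.0885 and 0.0885). For Clk and cry r over all 10 libraries was 0.91 (rho 0.87, permutation p 8.4e-04 and 0.00208, adjusted 0.0310 and 0.112), and 0.81 without the 2 farthest libraries. Both of these genes overlap an expressed neighbour, so their relation carries the uncertainty of their values. For Pdp1 and cwo r was 0.87 (rho 0.76, permutation, adjusted p 0.0310 and 0.229) and 0.60 without the 2 farthest. For vri and cwo it was 0.84 (rho 0.84, permutation, adjusted p 0.0454 and 0.140) and 0.82 without the 2 farthest. The values of r between tim and Clk (0.55), cry (0.57), vri (0.40), Pdp1 (0.18) and cwo (0.35) turned negative without the 2 libraries farthest from the median of tim, to -0.12, -0.15, -0.35, -0.73 and -0.37, so that they rested on those libraries. The lowest tim library was restrained replicate 3, at 50.6 FPKM. Without that library alone r was -0.04 for tim and Clk, -0.08 for tim and cry, 0.76 for Clk and cry, 0.79 for Pdp1 and cwo and 0.76 for vri and cwo.

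**Figure D4:**
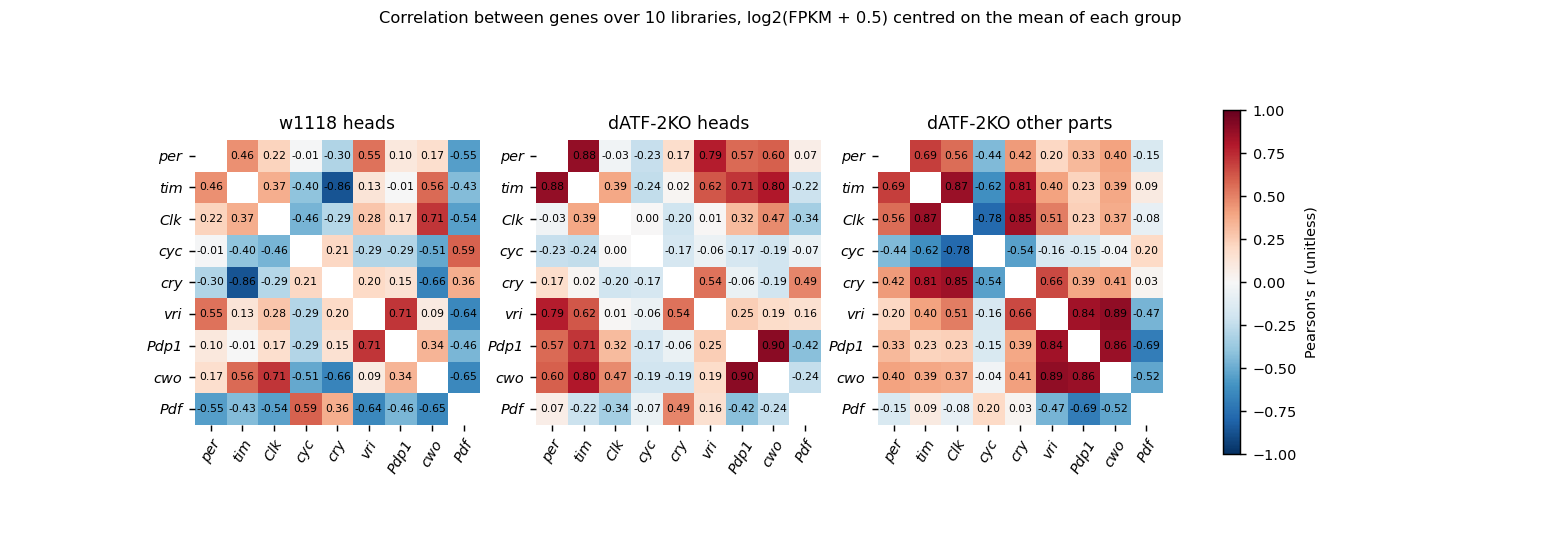
Pearson's r (colour and printed value, no unit) between each pair of the 9 genes over the 10 libraries of each table, on log2(FPKM + 0.5) values centred on the mean of their group, in 3 panels for w1118 heads, dATF-2KO heads and dATF-2KO other parts. The block of per, tim, vri, Pdp1 and cwo is mostly positive (medians 0.25, 0.67 and 0.40, the last at -0.11 without restrained replicate 3), no pair passes an adjusted p under 0.05, and tim and Clk stand at 0.37, 0.39 and 0.87.

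The genes most like tim across head libraries were ranked among 9808 genes by the smaller of the centred r of the 2 head tables, each over 10 libraries that share their scaling. The 5 at the top were the calcium channel subunit gene stj (0.93 in w1118 and 0.94 in dATF-2KO heads), CG42669 (0.89 and 0.90), the myosin heavy chain gene zip (0.87 and 0.91), Efa6 (0.86 and 0.92) and Glycogenin (0.86 and 0.88). Clock genes came far lower, with cwo in place 395, per in 728 and Clk in 1083. Most opposite were the ribosomal protein genes RpS25 (-0.88 and -0.86) and RpLP2 (-0.79 and -0.91), together with CG8329 (-0.84 and -0.80), CG3088 (-0.79 and -0.85) and CG9691 (-0.79 and -0.90). The genes most like Clk were l(2)gl (0.78 and 0.81), lack (0.71 and 0.83), Hnf4 (0.83 and 0.71), ClC-b (0.74 and 0.70) and clu (0.67 and 0.79), with cwo in place 193 and tim in 533. These correlations are descriptions across libraries, with no p-value.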

How the data were processed

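The authors mapped RNA-seq reads to dm3 (the submitters' processing notes name CASAVA, TopHat2, Cufflinks and Cuffnorm) and deposited FPKM values in 4 tables, each scaled on its own. Versions, annotation and the use of strand in counting were not given in the sources used here, and the labels and the methods of the study differ on the library kit. The authors' mean of a group was used as a level for w1118 other parts, where 12 library columns were not used. The tables also hold the authors' ratios, p-values and q-values, which were not used. Steps of low values were near whole multiples (within 0.05) for only 11.8 to 35.3% of ratios, so whole reads could not be recovered.

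Each table was fitted with limma 3.58.1 in R 4.3.3 (trended variance) on log2(FPKM + 0.5), which understates changes of low genes, over genes of mean FPKM at least 1, with Benjamini-Hochberg adjustment and calls at 0.05 and 1.4-fold. The difference between father genotypes was a limma interaction over 20 head libraries. Pearson's r and Spearman's rho were tested with NumPy 2.4.6 (ranks from SciPy 1.17.1). The test used 100000 two-sided permutations, or 14400 exact arrangements within groups for centred values, adjusted over 108 pairs. The ratio and overlap counts had no test. Tested on simulated data, the limma step recovered 85% of 100 genes changed 1.2-fold in w1118 heads, 72% in dATF-2KO heads and 45% in dATF-2KO other parts. Recovery meant an adjusted p under 0.05 in the right direction, with no threshold on the fold. The changed genes were drawn from those near or above 5 FPKM, with errors independent between genes. Alternatives covered pseudocount, filter, scaling, replicate block and leaving out each library. Counts at any fold, the photoreceptor covariate, the centred correlations, the omission of restrained replicate 3 from lists and relations, and median scaling, block and covariate of the interaction were added after seeing the data. Members and lists were chosen with earlier results of these data known. All 9 genes were described, and from each list up to 4 genes of lowest p-value. Loci are those of the tables, counted from 1.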

Additional observations from a re-analysis of the deposited data

Results flagged for a closer look

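In 11 of the 60 sets of 5 values examined (9 genes and the tim to Clk ratio in 6 groups), 1 library lay far from the other 4 of its group by Dixon's test. Chance flags about 1 in 20 sets. In w1118 heads these were an unrestrained library with vri at 59.5 FPKM, a restrained library with cry at 179.6 FPKM and a restrained library with a tim to Clk ratio of 12.3. In dATF-2KO heads they were unrestrained libraries with per at 31.95 FPKM and Pdp1 at 171 FPKM, and restrained libraries with per at 32.1 FPKM and Pdf at 92.9 FPKM. In dATF-2KO other parts they were unrestrained libraries with vri at 34.5 FPKM and Pdf at 2.83 FPKM, and restrained replicate 3 with tim at 50.6 FPKM and Clk at 21.3 FPKM. The change of tim with paternal restraint differed between father genotypes in heads by -0.28 on the log2 scale (limma adjusted p 0.0142), though not with the photoreceptor markers as a covariate (-0.19, limma adjusted p 0.627). That covariate did not overlap between the groups of w1118 heads, so it and the groups cannot be told apart there.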

How the results depend on the processing

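Only small changes are at issue, and the depth behind each FPKM value is unknown. In w1118 heads, 2 members and 110 of all genes passed with no threshold on the fold, against none and 9 at 1.4-fold. In dATF-2KO heads 5 of all genes then passed. The 2 members lower at any fold became 1 with no filter on low values or with quantile normalization, 0 with the replicate block and 0 with the photoreceptor covariate, and 1 to 3 when a library was left out. With a mean of at least 5 FPKM, 3 passed, cwo included (limma adjusted p 0.0474). Genes called at 1.4-fold in w1118 heads were 0 with the replicate block, 4 with the photoreceptor covariate and 3 to 7 without 1 library. They were 1 to 4 in dATF-2KO heads and 9 to 16 in dATF-2KO other parts without 1 library.

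The replicate numbers did not pair the samples: deviations of same-numbered libraries correlated at -0.14 to 0.16, and 1 library in w1118 heads matched its own number best. With the replicate block the limma adjusted p was 0.131 for tim and 0.248 for per, and the difference of tim between father genotypes kept its value of -0.28 with 0.142, so that 0 members passed there, as with the photoreceptor covariate (-0.188, 0.627). The change of tim in w1118 heads kept its direction in every alternative (-0.37 to -0.26).

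With the photoreceptor covariate in w1118 heads, Clk turned to -0.12, cry to 0.079 and Pdf to 0.22, none passing. After centring in w1118 heads, r became 0.37 for tim and Clk and -0.86 for tim and cry. With median scaling, r of vri and Clk was -0.0052 in w1118 heads and -0.10 in dATF-2KO heads, and that of tim and cry was -0.13 in dATF-2KO heads. Without the 2 libraries farthest from the median of vri, r of vri and Clk was -0.30 in w1118 heads, but 0.70 without the 2 farthest from the median of Clk. Without those farthest from the median of tim, in dATF-2KO other parts r of tim was -0.349 with vri, -0.728 with Pdp1, -0.374 with cwo, -0.117 with Clk and -0.148 with cry. The cause was not tested.

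Leaving out 1 library turned the sign of these changes near 0, none of which passed: cyc in w1118 heads (-0.0043 to 0.034), tim (-0.033 to 0.018), vri (-0.029 to 0.00034) and Pdf (-0.056 to 0.015) in dATF-2KO heads, and tim (-0.0058 to 0.048), cyc (-0.0082 to 0.062) and vri (-0.043 to 0.051) in dATF-2KO other parts. It also turned the sign of r for vri and Clk in w1118 heads (-0.23 to 0.37). In dATF-2KO heads r ranged from -0.11 to 0.64 for tim and Pdp1, -0.21 to 0.34 for tim and cry and -0.11 to 0.13 for Clk and cry. In other parts r ranged for tim from -0.017 to 0.62 with vri, -0.53 to 0.59 with Pdp1, -0.16 to 0.66 with cwo, -0.039 to 0.63 with Clk and -0.080 to 0.64 with cry, and for vri and Clk from -0.20 to 0.51.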
